A study of Homo sapiens with 12 samples.

Results

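The p53 target genes described here are 33 protein-coding genes that the transcription factor p53 is known to activate. They were chosen by name as known targets, with earlier results of these data known, and each was found as 1 row of the deposited count table, none of them reaching over 100 kb past its gene. They are 33 of 45340 gene intervals used, and 32 of them are among the 25147 genes that held enough reads to test. The exception was SPATA18, a regulator of mitochondrial quality control, with 0 to 3 reads per library. The cells were A172, an established human glioblastoma line that the labels give as adherent glioma cells of genotype WT. Each of the 12 samples had 6 h of contact on day 1 with 9 µL of Lipofectamine 2000 and 3 µL of a 20 µM siRNA stock, the controls included, and gave total RNA on day 2. Of these, 4 received a scrambled control siRNA, 4 received siRNA-1 against uc.110 and 4 received siRNA-2 against uc.110, where uc.110 is an ultraconserved element of the genome. The question was which RNA levels differ after either siRNA, in a single cell line and at 1 time after transfection. Whether the 4 libraries of a group are separate cultures is not stated in the labels, so a p-value covers only the spread between them, which may be technical.

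p53 is a tetrameric transcription factor that stays at a low level because the ubiquitin ligase MDM2 marks it for destruction. DNA damage, ribosome stress or oncogene signals release it, and it then binds paired copies of a short palindromic word and activates genes of cell cycle arrest, DNA repair, apoptosis and metabolism, MDM2 itself included. In glioblastoma the pathway is commonly lost, for example through gain of MDM2 or MDM4 or loss of CDKN2A, and A172 is known as a line with a deleted CDKN2A locus.

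The word that p53 binds can be read in some of the promoters themselves, shown here because the genes below are grouped by that shared regulator. RefSeq promoter windows (GRCh38.p14, 250 bases before to 50 bases after each start site) were matched for 27 of the 33 genes, in 39 windows. The p53 half-site, a 10-base word that reads the same on both strands when its degenerate letters are allowed for, was found in 7 of the 39 windows (17.9%) and in 6.63% of all 35116 windows. DDB2, a recogniser of ultraviolet damage, had 2 half-sites with a spacer of 1 base, an arrangement with a spacer of 0 to 13 bases that 10 of all windows held (0.0285%). Capitals mark the half-sites, each line reads 5′ to 3′ on the strand of the gene, and the position counts from the start site to the first capital.
DDB2, chr11:47214975-47215003, plus strand, position 6: gtttGAACAAGCCCtGGGCATGTTTggcg
PLK2, chr5:58460199-58460228, minus strand, position -132: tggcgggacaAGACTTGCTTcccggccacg
SESN1, chr6:109009018-109009047, minus strand, position -49: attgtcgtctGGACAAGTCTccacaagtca
FAS, chr10:88991299-88991328, plus strand, position -122: cggaactcctGGACAAGCCCtgacaagcca
RPS27L, chr15:63157517-63157546, minus strand, position -59: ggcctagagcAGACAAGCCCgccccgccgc
AEN, chr15:88621296-88621325, plus strand, position -34: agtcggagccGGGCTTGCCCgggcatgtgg
FDXR, chr17:74872986-74873015, minus strand, position -11: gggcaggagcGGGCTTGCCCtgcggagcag
The core letters CATG, part of one form of the half-site and so overlapping it, stood in 11 of the 39 windows (28.2%) and in 54.9% of all windows. Among these 7 genes PLK2, SESN1 and AEN rose with both siRNAs, RPS27L fell with both, FAS and FDXR rose with siRNA-2, and DDB2 fell with siRNA-1. A match is a description of the letters in the window, and no binding was measured here.

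Libraries held 43300757 to 53577375 counts over the gene intervals. Reads in the 45S ribosomal RNA intervals, here named 45S reads, made up 1.68% to 5.03% of 10 libraries, 14.8% of siRNA-1 replicate 3 and 8.48% of siRNA-2 replicate 2. Precursor and mature ribosomal RNA were not told apart there. In scrambled replicate 1, reads fell in 1686 intervals empty in all other libraries, where each of those had 92 to 179 intervals of its own. Values without these libraries are given where a call changes. Of the 10 glioma cell markers 9 were at 1 CPM (counts scaled to the size of the library) or more in each group and FABP7 was under it. Their summed levels, mostly from VIM, were 3711 to 4121 CPM in scrambled, 2772 to 3074 in the siRNA-1 group and 3244 to 3409 in the siRNA-2 group. By the edgeR test used below, 4 of 9 tested were higher and 4 lower with each siRNA, past an adjusted p of 0.05. Of all genes tested, 53.5% were called with siRNA-1 and 56.1% with siRNA-2. The 8 blood and endothelial markers that had an interval summed to 40.9 to 48.2, 71.0 to 87.5 and 153 to 183 CPM, mostly from the lysosomal gene CD68. CD3E, CDH5, HBA1 and TYROBP were under 1 CPM in every group. The 9 epithelial and neuron markers with an interval summed to 15.4 to 25.4, 32.03 to 44.9 and 26.1 to 33.1 CPM. These sums came mostly from KRT5, at 8.085 to 17.42, 22.2 to 38.13 and 20.21 to 26.91 CPM. The part of these shifts in the results below was not tested.

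The 32 tested genes did not move as a block: some rose and some fell with each siRNA. With siRNA-1 against scrambled, 11 rose and 12 fell past an adjusted p of 0.05, so 71.9% were called, and their median log2 fold change was -0.08. The background was high: of all 25147 genes tested 53.5% were called in that comparison (26.6% higher, 26.9% lower, median -0.02), and of the 11733 protein-coding genes at an average log2 CPM of at least 2, here named expressed, 70.1% (35.3% higher, 34.8% lower). With siRNA-2 against scrambled, 17 rose and 7 fell, so 75.0% were called with a median of 0.24, against 56.1% of all genes (28.5% higher, 27.6% lower, median 0.00) and 72.9% of the expressed protein-coding genes (35.1% higher, 37.8% lower). The shares called are thus close to that of expressed protein-coding genes in both comparisons, while the share that rose with siRNA-2 was 53.1%. In bulk RNA, fewer cells with a transcript and less of it per cell cannot be told apart. Taken by their libraries, the siRNA-1 group lay wholly above scrambled for 8 genes and wholly below for 11 (of all genes, 23.6% and 24%, together 47.5%), and the siRNA-2 group for 16 and 6 (26.3% and 25.2%, together 51.5%). Both comparisons use the same 4 scrambled libraries, so they are not independent of each other.

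**Figure D1:**
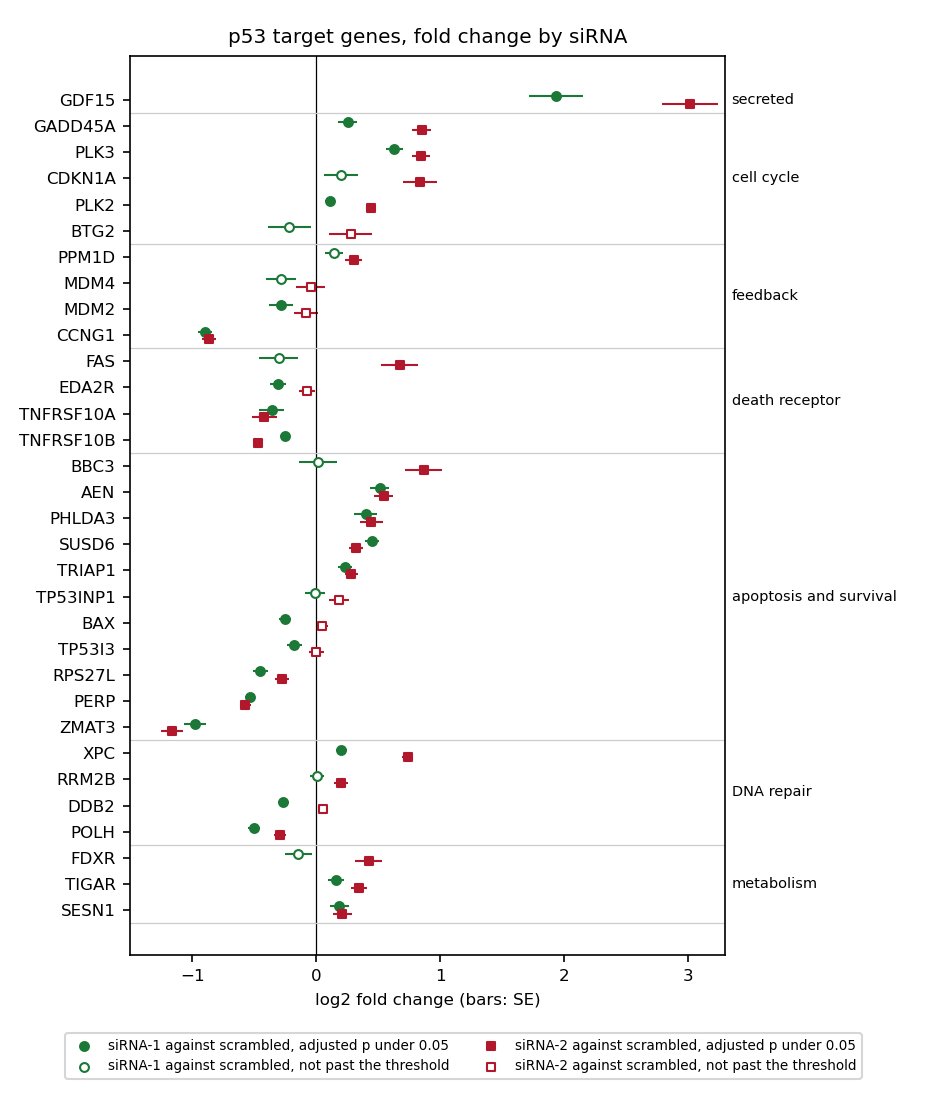
Log2 fold change against scrambled (horizontal axis, bars are SE) for the 32 tested p53 target genes, grouped by role, with circles for siRNA-1 and squares for siRNA-2, 4 libraries against 4, filled where the adjusted p was under 0.05. GDF15 stands far to the right at 1.93 and 3.01, ZMAT3 and CCNG1 lie to the left with both siRNAs, and CDKN1A, BBC3 and FAS are filled for siRNA-2 only.

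Sorted by both comparisons, 11 genes rose with each siRNA: AEN, GADD45A, GDF15, PHLDA3, PLK2, PLK3, SESN1, SUSD6, TIGAR, TRIAP1 and XPC. A further 7 fell with each, namely CCNG1, PERP, POLH, RPS27L, TNFRSF10A, TNFRSF10B and ZMAT3. BAX, DDB2, EDA2R, MDM2 and TP53I3 fell with siRNA-1 and were not called with siRNA-2, and BBC3, CDKN1A, FAS, FDXR, PPM1D and RRM2B rose with siRNA-2 and were not called with siRNA-1. BTG2, MDM4 and TP53INP1 passed the threshold with neither. No gene of the 33 rose with one siRNA and fell with the other. Among all genes tested, 20.5% rose with both, 20% fell with both, 0.99% fell with siRNA-1 and rose with siRNA-2, and 0.771% did the reverse. Whatever the other siRNA did, 28.5% of all genes rose with siRNA-2 and 26.9% fell with siRNA-1. Genes called with 1 siRNA alone were not counted over all genes, so those members are listed as description only. Without siRNA-1 replicate 3 and siRNA-2 replicate 2, the libraries rich in 45S reads, 8 genes rose with siRNA-1 in place of 11, and 6 when scrambled replicate 1 was left out as well. The calls lost in the former setting were those of PLK2 (adjusted p = 0.0918), SESN1 (0.0886) and TIGAR (0.157), while the fall of FAS with siRNA-1 then passed (0.0349). The 7 genes lower with siRNA-2 stayed at a count of 7 in both settings, and the higher ones numbered 17 and 16.

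**Figure D2:**
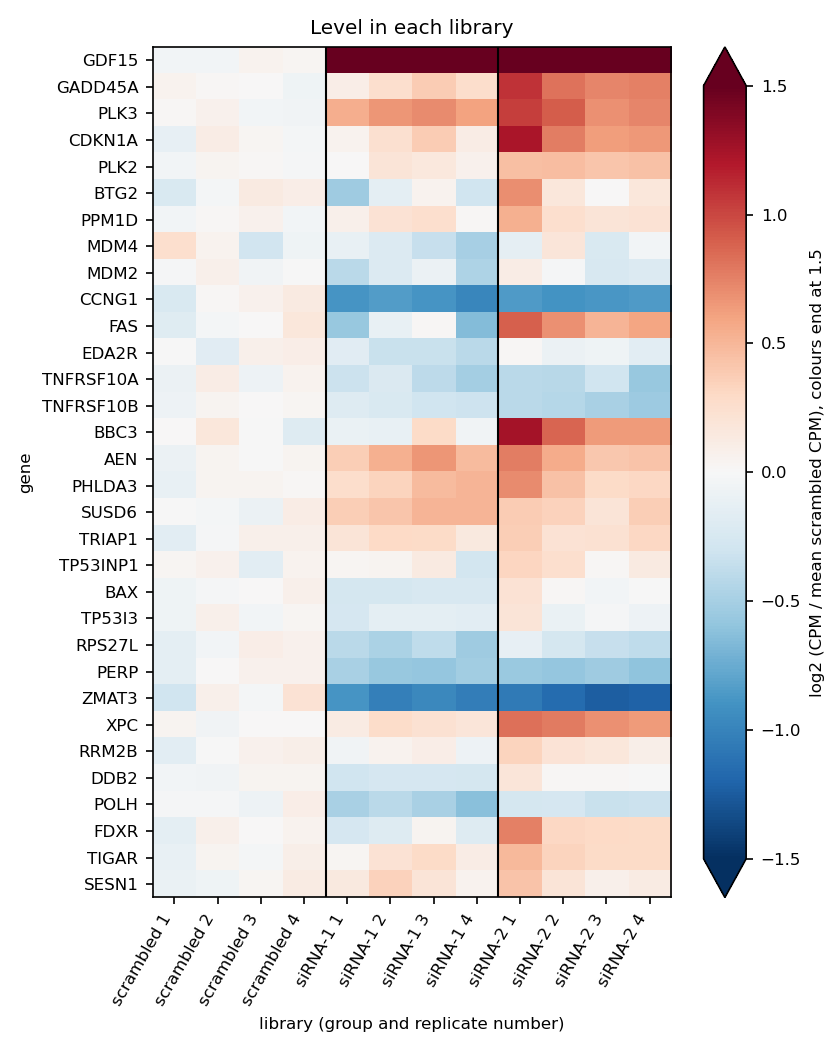
Level of each p53 target gene (rows, by role) in each of the 12 libraries (columns), as log2 of its CPM over the mean of the 4 scrambled libraries, with colours that end at 1.5 in either direction. The rows of CCNG1 and ZMAT3 are blue across all 8 siRNA libraries, GDF15 is dark red across them, and siRNA-2 replicate 1 is the reddest column for BBC3, CDKN1A and FDXR.

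The largest change belonged to GDF15, a secreted stress cytokine of the TGF-beta superfamily that signals through a receptor in the hindbrain. Its interval lies at chr19:18378031-18389789 (hg38) on the plus strand of chromosome 19. The 250 bases before its RefSeq start site are shown, since it moved most of all, with the TATAAA word in capitals at position -29. That word was found on the strand of the gene in 7.33% of all windows and in GDF15 alone among the 39 windows of these genes.
GDF15, chr19:18385908-18386157, plus strand: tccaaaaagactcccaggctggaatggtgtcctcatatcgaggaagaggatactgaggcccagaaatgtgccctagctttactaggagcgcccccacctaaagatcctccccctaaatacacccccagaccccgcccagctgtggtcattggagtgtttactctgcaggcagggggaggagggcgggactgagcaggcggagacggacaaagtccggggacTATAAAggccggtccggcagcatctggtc
GDF15 stood at 36.5, 36.7, 38.9 and 38.5 CPM in scrambled replicates 1 to 4, at 107, 139.8, 186 and 142 CPM with siRNA-1, and at 428, 288, 243 and 257 CPM with siRNA-2. The 3 groups did not overlap, and the siRNA libraries differed among themselves far more than the scrambled ones did. It rose by 1.93 (adjusted p = 3.59e-05, SE 0.22) with siRNA-1 and by 3.01 (adjusted p = 1.19e-06, SE 0.22) with siRNA-2 on the log2 scale. Without siRNA-2 replicate 1, its highest library, the rise with siRNA-2 was 2.80. A microRNA gene inside its span, MIR3189, held a number of reads equal to 17.2% of those of GDF15, and the counting does not separate them.

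Cell cycle genes were higher or not called. With siRNA-1, 3 of 5 rose and none fell, and with siRNA-2, 4 of 5 rose and none fell (edgeR, adjusted over all genes). None of the 5 was lower at an unadjusted p under 0.05 or by DESeq2 either. Each role, here and below, holds few genes, and its counts stand against a high background. In the siRNA-1 comparison, 26.6% of all genes were higher and 26.9% lower (expressed protein-coding genes 35.3% and 34.8%). The siRNA-2 comparison had 28.5% higher and 27.6% lower (expressed protein-coding genes 35.1% and 37.8%). Whether any role departs from these shares was not tested. CDKN1A encodes p21, the inhibitor of cyclin-dependent kinases that carries out the p53 arrest, and lies at chr6:36676461-36689007 on chromosome 6. It stood at 358, 422, 399 and 384 CPM in the scrambled libraries, 404, 460.4, 508 and 422 CPM with siRNA-1, and 911, 665, 603 and 615 CPM with siRNA-2. All siRNA-2 libraries lay above all others, while the siRNA-1 libraries overlapped the scrambled ones. With siRNA-2 it rose by 0.84 (adjusted p = 0.000444, SE 0.14), and its log2 fold change with siRNA-1 was 0.20 (adjusted p = 0.251, SE 0.14), with an interval of -0.11 to 0.51. Without siRNA-2 replicate 1 the values were 0.69 with siRNA-2 and 0.20 with siRNA-1, the latter then past the threshold (adjusted p = 0.0315).

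GADD45A, a stress-induced partner of p21 and of the replication clamp at chr1:67685178-67690188, stood at 61.5, 59.96, 59.6 and 56.6 CPM in scrambled, 63.9, 70.8, 77.5 and 71.4 CPM with siRNA-1 and 126, 104, 98.7 and 100.5 CPM with siRNA-2. Its groups did not overlap, and siRNA-2 replicate 1 was again its highest library. It rose by 0.25 (adjusted p = 0.0135, SE 0.08) with siRNA-1 and by 0.85 (adjusted p = 4.58e-07, SE 0.08) with siRNA-2. With the 2 libraries rich in 45S reads and scrambled replicate 1 all left out, the siRNA-1 rise was 0.23 (adjusted p = 0.0692). PLK3, a polo-like kinase of the stress response, stood at 10.3, 10.6, 9.81 and 9.79 CPM, 14.8, 16.02, 16.5 and 15.4 CPM and 20.8, 18.9, 16.4 and 16.8 CPM in the same order. Both siRNA groups lay wholly above scrambled, with rises of 0.63 (adjusted p = 2.89e-08, SE 0.07) and 0.85 (adjusted p = 9.56e-11, SE 0.07). PLK2, the related kinase of the centrosome cycle, went from 139 ± 3.47 CPM (SD, n = 4) to 149.98 ± 8.86 and 189 ± 2.73 CPM. PLK2 rose by 0.44 (adjusted p = 3.06e-10, SE 0.04) with siRNA-2. Its smaller rise with siRNA-1 was 0.11 (adjusted p = 0.022, SE 0.04), its groups overlapped there, and the call was lost without siRNA-1 replicate 2 (adjusted p = 0.0971). BTG2, an antiproliferative gene, was at 23.7 ± 2.56, 20.5 ± 3.48 and 28.9 ± 6.51 CPM, with log2 fold changes of -0.22 (adjusted p = 0.331, SE 0.17) and 0.28 (adjusted p = 0.198, SE 0.17).

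**Figure D3:**
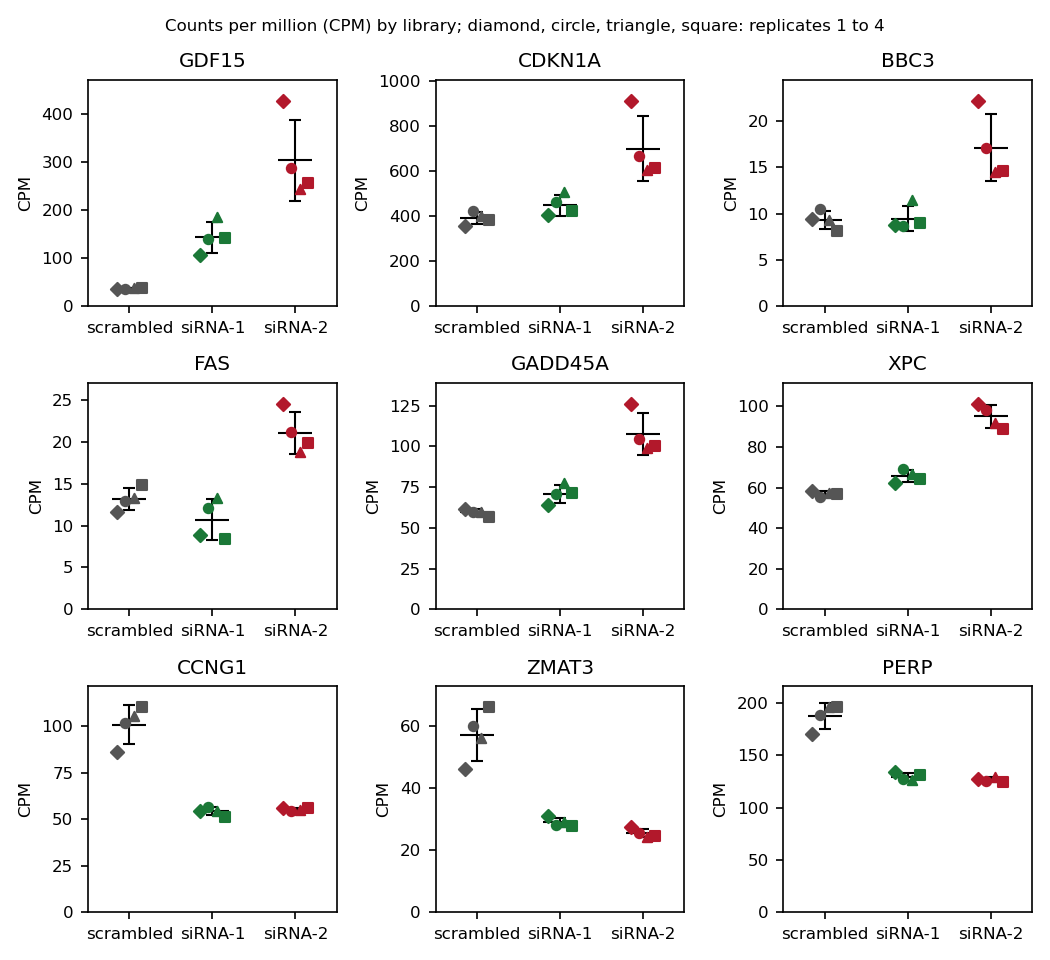
CPM of 9 p53 target genes in each library (points, shaped by replicate number), with the mean and SD of 4 libraries as black bars, on axes that start at 0. GDF15, GADD45A and XPC step up from scrambled to siRNA-1 to siRNA-2, CDKN1A, BBC3 and FAS stand apart in siRNA-2 with replicate 1 highest, and CCNG1, ZMAT3 and PERP are about as low with both siRNAs.

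The genes that feed back on p53 did not move together. Of 4, none rose and 2 fell with siRNA-1, and 1 rose and 1 fell with siRNA-2 (edgeR). None was higher with siRNA-1 at an unadjusted p under 0.05 or by DESeq2 either. CCNG1 encodes cyclin G1, which recruits a phosphatase to MDM2, and lies at chr5:163437568-163448199. It stood at 86.04, 102, 105 and 111 CPM in scrambled, 54.7, 56.5, 54.6 and 51.3 CPM with siRNA-1 and 55.9, 54.4, 55.2 and 56.2 CPM with siRNA-2. Every siRNA library lay below every scrambled library, and CCNG1 fell by 0.89 (adjusted p = 2.22e-11, SE 0.06) and by 0.87 (adjusted p = 2.9e-11, SE 0.06). Its span overlaps NUDCD2 on the other strand over 4670 bases, and reads there cannot be told apart. MDM2, at chr12:68808149-68850686, stood at 92.4, 97.9, 89.6 and 92.7 CPM in scrambled, 70.3, 80.8, 87.6 and 67.7 CPM with siRNA-1 and 101, 91.8, 78.7 and 80.9 CPM with siRNA-2. The siRNA-1 libraries all lay under the scrambled ones, and the siRNA-2 libraries spread on both sides of them. MDM2 fell by 0.28 (adjusted p = 0.0306, SE 0.10) with siRNA-1, and its value with siRNA-2 was -0.08 (adjusted p = 0.506, SE 0.10), with an interval of -0.29 to 0.13.

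The call of MDM2 was lost with any of 6 libraries left out, while its log2 fold change stayed at -0.33 to -0.20 with each library left out in turn. The adjusted p was 0.0637, 0.0811, 0.0543 and 0.0767 without scrambled replicates 1, 2, 3 and 4, and 0.106 and 0.101 without siRNA-1 replicates 1 and 4. MDM2 also shares 8494 bases with CPM, a carboxypeptidase gene on the other strand. PPM1D, the WIP1 phosphatase that switches off damage signalling, went from 46.2 ± 1.67 CPM (SD, n = 4) to 51.1 ± 3.94 with siRNA-1 and 57.02 ± 6.53 with siRNA-2. It rose by 0.30 (adjusted p = 0.00124, SE 0.07) with siRNA-2 and had a log2 fold change of 0.14 (adjusted p = 0.0942, SE 0.07) with siRNA-1. The siRNA-1 value passed the threshold when scrambled replicate 3, siRNA-1 replicate 1 or 4, or siRNA-2 replicate 1, 3 or 4 was left out (adjusted p = 0.049, 0.0419, 0.0181, 0.0152, 0.0387 and 0.0428). MDM4, the relative of MDM2 that masks the activation domain of p53, was at 14.997 ± 2.31, 12.3 ± 1.42 and 14.5 ± 1.81 CPM. Its log2 fold changes were -0.28 (adjusted p = 0.0675, SE 0.12) and -0.05 (adjusted p = 0.774, SE 0.12), and the former passed the threshold without scrambled replicate 3 (adjusted p = 0.0131) or siRNA-2 replicate 2 (adjusted p = 0.0413).

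Among the 4 death receptors, both TRAIL receptors fell with each siRNA, while FAS rose with siRNA-2. In counts, none rose (also at an unadjusted p under 0.05 and by DESeq2) and 3 fell with siRNA-1, and 1 rose and 2 fell with siRNA-2. TNFRSF10B, the receptor DR5, lies on chromosome 8 and stood at 305, 329, 321 and 327 CPM in scrambled, 280.1, 274, 261 and 259 CPM with siRNA-1 and 242, 238, 229 and 219.8 CPM with siRNA-2. The 3 groups did not overlap, and it fell by 0.26 (adjusted p = 4.54e-06, SE 0.04) with siRNA-1 and by 0.47 (adjusted p = 1.47e-10, SE 0.04) with siRNA-2. TNFRSF10A, the receptor DR4, went from 5.33 ± 0.361 CPM (SD, n = 4) to 4.16 ± 0.353 and 3.99 ± 0.3 CPM, a fall of 0.36 (adjusted p = 0.00356, SE 0.10) and of 0.42 (adjusted p = 0.000778, SE 0.10). RHOBTB2 shares 4599 bases with TNFRSF10B on the other strand.

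FAS, the receptor of the Fas ligand at chr10:88953565-89021421, stood at 11.6, 12.9, 13.3 and 14.9 CPM in scrambled, 8.897, 12.2, 13.3 and 8.39 CPM with siRNA-1 and 24.5, 21.1, 18.7 and 19.8 CPM with siRNA-2. Every siRNA-2 library was above all 8 others, and the siRNA-1 libraries overlapped the scrambled ones, with replicates 1 and 4 below them. FAS rose by 0.67 (adjusted p = 0.00273, SE 0.15) with siRNA-2, and its log2 fold change with siRNA-1 was -0.30 (adjusted p = 0.129, SE 0.16). Without siRNA-1 replicate 3, the siRNA-1 value was -0.40 and past the threshold (adjusted p = 0.0291). The FAS interval overlaps ACTA2, the smooth muscle actin gene on the other strand, over 37833 bases, and the reads of both cannot be told apart there. EDA2R, a receptor of ectodysplasin A2 on chromosome X, was at 16.4 ± 1.33, 13.2 ± 0.942 and 15.6 ± 0.801 CPM. It fell by 0.31 (adjusted p = 0.000343, SE 0.07) with siRNA-1, although 1 siRNA-1 library lay among the scrambled ones, and its value with siRNA-2 was -0.07 (adjusted p = 0.357, SE 0.07).

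Genes of apoptosis and survival went both ways. Of 11 tested, 4 rose and 5 fell with siRNA-1, and 5 rose and 3 fell with siRNA-2. BBC3 encodes PUMA, a BH3-only activator of apoptosis, and lies at chr19:47217643-47232998 on the minus strand. It stood at 9.39, 10.6, 9.36 and 8.17 CPM in scrambled, 8.77, 8.70, 11.4 and 9.05 CPM with siRNA-1 and 22.2, 17.1, 14.5 and 14.6 CPM with siRNA-2. The siRNA-2 libraries lay above all others, and the other 2 groups overlapped. BBC3 rose by 0.87 (adjusted p = 0.000289, SE 0.15) with siRNA-2, or by 0.72 without siRNA-2 replicate 1. With siRNA-1 its value was 0.02 (adjusted p = 0.94, SE 0.15), with an interval of -0.32 to 0.35.

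BAX, which forms pores in the outer mitochondrial membrane, stood at 53.7, 55.3, 56.1 and 59.1 CPM in scrambled, 46.5, 46.7, 47.6 and 47.5 CPM with siRNA-1 and 65.02, 56.8, 54.5 and 55.8 CPM with siRNA-2. The siRNA-1 libraries were the lowest 4 of the 12, and siRNA-2 replicate 1 was the highest. BAX fell by 0.25 (adjusted p = 9.71e-05, SE 0.05) with siRNA-1, and its value with siRNA-2 was 0.05 (adjusted p = 0.399, SE 0.05), with an interval of -0.05 to 0.15. TP53I3, a quinone oxidoreductase whose interval lies wholly inside FAM228B, went from 31.9 ± 1.47 CPM (SD, n = 4) to 28.3 ± 0.923 and 32.003 ± 3.13 CPM. It fell by 0.18 (adjusted p = 0.0119, SE 0.06) with siRNA-1, a call lost without scrambled replicate 2 (adjusted p = 0.0597), scrambled replicate 4 (adjusted p = 0.0612) or siRNA-1 replicate 1 (adjusted p = 0.0924). With siRNA-2 its value was 0.00 (adjusted p = 0.977, SE 0.06). TP53INP1, a stress protein of autophagy and cell death whose interval lies inside NDUFAF6, was at 19.3 ± 1.32, 19.2 ± 2.23 and 21.99 ± 1.99 CPM. Its log2 fold changes were -0.01 (adjusted p = 0.912, SE 0.08) and 0.19 (adjusted p = 0.0561, SE 0.08). The siRNA-2 value passed the threshold without scrambled replicate 4, siRNA-1 replicate 1, 3 or 4, or siRNA-2 replicate 3 or 4 (adjusted p = 0.0482, 0.0448, 0.0246, 0.00817, 0.0104 and 0.0451).

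ZMAT3, a zinc finger protein that binds RNA and alters splicing, fell furthest of the 33 genes with both siRNAs. Its interval lies at chr3:178982736-179074261 on the minus strand, and it stood at 46.2, 60.05, 55.9 and 66.2 CPM in scrambled, 30.97, 28.02, 29.1 and 27.9 CPM with siRNA-1 and 27.3, 25.6, 24.3 and 24.6 CPM with siRNA-2. The scrambled libraries ran over a wide range, yet the lowest of them, replicate 1, stood above every siRNA library. ZMAT3 fell by 0.98 (adjusted p = 3.42e-07, SE 0.09) with siRNA-1 and by 1.17 (adjusted p = 4.62e-08, SE 0.09) with siRNA-2. PERP, a tetraspan membrane protein of desmosomes and of p53-driven death, at chr6:138086560-138107523, stood at 169.7, 188, 196 and 196 CPM, 134, 127, 126 and 131 CPM and 127, 125, 129 and 124 CPM in the same order. Its siRNA groups lay together, well under scrambled, with falls of 0.54 (adjusted p = 3.28e-11, SE 0.04) and 0.57 (adjusted p = 8.4e-12, SE 0.04). RPS27L, a ribosomal protein paralogue, went from 42.4 ± 3.23 CPM (SD, n = 4) to 31.02 ± 1.51 and 35.1 ± 2.84 CPM. It fell by 0.45 (adjusted p = 5.2e-07, SE 0.06) with siRNA-1 and by 0.27 (adjusted p = 0.000289, SE 0.06) with siRNA-2, where 1 library reached into the scrambled range. Reads of near-identical ribosomal copies may be shared by RPS27L, and its value is uncertain to that extent.

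The apoptosis and survival genes that rose with both siRNAs were AEN, PHLDA3, SUSD6 and TRIAP1. AEN, a nuclease that digests DNA in dying cells, went from 34.1 ± 1.45 CPM (SD, n = 4) to 48.6 ± 4.16 with siRNA-1 and 49.8 ± 6.01 with siRNA-2, a rise of 0.51 (adjusted p = 3.57e-05, SE 0.08) and of 0.55 (adjusted p = 1.57e-05, SE 0.08). PHLDA3, which competes with AKT for membrane lipids and so dampens survival signalling, went from 129 ± 6.21 to 169.6 ± 13.1 and 175 ± 24.6 CPM. In all 8 siRNA libraries PHLDA3 was above all 4 scrambled libraries, with rises of 0.40 (adjusted p = 0.00406, SE 0.09) and 0.45 (adjusted p = 0.00185, SE 0.09). Leaving out both libraries rich in 45S reads and scrambled replicate 1 gave an adjusted p of 0.0521 for PHLDA3 with siRNA-1, at a rise of 0.34. SUSD6, a membrane protein, was at 14.8 ± 0.891, 20.3 ± 0.969 and 18.5 ± 1.08 CPM, and rose by 0.45 (adjusted p = 3.83e-07, SE 0.06) and 0.32 (adjusted p = 4.53e-05, SE 0.06). TRIAP1, a small mitochondrial protein that restrains apoptosis, was at 26.2 ± 1.99, 30.7 ± 1.51 and 31.9 ± 1.58 CPM, and rose by 0.23 (adjusted p = 0.00112, SE 0.06) and 0.28 (adjusted p = 9.56e-05, SE 0.06). Thus a death gene (AEN) and a survival gene (TRIAP1) were among those raised, and BAX and PERP were among those lowered with siRNA-1.

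DNA repair genes were split. Of 4, 1 rose and 2 fell with siRNA-1, and 2 rose and 1 fell with siRNA-2. XPC, the damage sensor that starts global nucleotide excision repair, lies at chr3:14145145-14178672 and stood at 58.5, 55.2, 57.4 and 57.04 CPM in scrambled, 62.1, 69.1, 66.9 and 64.5 CPM with siRNA-1 and 101, 98.03, 91.9 and 88.9 CPM with siRNA-2. Its 3 groups did not overlap and their spread was small, with rises of 0.20 (adjusted p = 0.000388, SE 0.04) and 0.74 (adjusted p = 2.1e-13, SE 0.04). DDB2, which hands ultraviolet lesions to XPC and whose paired half-sites are printed above, lies at chr11:47214350-47239583. It stood at 71.8, 71.1, 75.99 and 76.2 CPM, 59.8, 62.2, 62.1 and 61.5 CPM and 83.5, 74.8, 74.5 and 73.7 CPM in the same order. The siRNA-1 libraries lay under all others, and DDB2 fell by 0.27 (adjusted p = 8.43e-06, SE 0.04) with siRNA-1, against 0.05 (adjusted p = 0.287, SE 0.04) with siRNA-2, with an interval of -0.03 to 0.14.

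POLH, the polymerase eta that copies past ultraviolet lesions, stood at 57.7, 58.1, 55.8 and 62.9 CPM in scrambled, 41.7, 44.3, 41.9 and 37.9 CPM with siRNA-1 and 48.9, 49.4, 46.5 and 46.7 CPM with siRNA-2. Its 3 groups did not overlap, with siRNA-2 in the middle, and it fell by 0.50 (adjusted p = 2.18e-09, SE 0.05) and by 0.29 (adjusted p = 9.55e-06, SE 0.05). RRM2B, the p53-inducible subunit of ribonucleotide reductase, went from 66.6 ± 4.92 CPM (SD, n = 4) to 66.8 ± 3.82 and 76.8 ± 5.501 CPM. It rose by 0.20 (adjusted p = 0.00427, SE 0.06) with siRNA-2, and its value with siRNA-1 was 0.00 (adjusted p = 0.956, SE 0.06), with an interval of -0.11 to 0.12.

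Of the 3 metabolic genes, 2 rose with siRNA-1 and 3 with siRNA-2. With all 12 libraries none was lower by edgeR, by DESeq2 or at an unadjusted p under 0.05. FDXR, the ferredoxin reductase of mitochondrial iron-sulfur cluster and steroid synthesis at chr17:74862497-74873031, stood at 28.99, 33.7, 32.3 and 33.2 CPM in scrambled, 26.9, 28.04, 32.9 and 28.1 CPM with siRNA-1 and 53.9, 39.6, 39.5 and 38.95 CPM with siRNA-2. All siRNA-2 libraries lay above the rest, replicate 1 by a wide margin. FDXR rose by 0.42 (adjusted p = 0.00618, SE 0.11) with siRNA-2, or by 0.30 without that replicate, and its value with siRNA-1 was -0.14 (adjusted p = 0.302, SE 0.11). Without siRNA-2 replicate 1 the siRNA-1 value of -0.14 passed the threshold (adjusted p = 0.041).

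TIGAR, a phosphatase that turns glycolysis toward the pentose phosphate pathway, went from 15.2 ± 0.917 CPM (SD, n = 4) to 17.1 ± 1.29 and 19.4 ± 1.303 CPM. It rose by 0.16 (adjusted p = 0.0356, SE 0.06) and by 0.35 (adjusted p = 4.04e-05, SE 0.06). The siRNA-1 groups overlapped for TIGAR, and that call was lost without scrambled replicate 1 (adjusted p = 0.0999) or siRNA-1 replicates 2 (adjusted p = 0.0856) or 3 (adjusted p = 0.0659). SESN1, a stress sensor that restrains mTORC1, went from 17.6 ± 1.19 to 20.04 ± 1.78 and 20.4 ± 2.297 CPM, and its groups overlapped in both comparisons. The rises of SESN1 were 0.19 (adjusted p = 0.0418, SE 0.08) and 0.21 (adjusted p = 0.0215, SE 0.07). Without scrambled replicates 1 and 2 its adjusted p was 0.101 and 0.0911 for siRNA-1 and 0.0572 and 0.0525 for siRNA-2. It was 0.159 for siRNA-1 without siRNA-1 replicate 2, and 0.102 for siRNA-2 without siRNA-2 replicate 1. ARMC2 and CEP57L1 overlap SESN1 on the other strand.

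The siRNAs were also set against each other, which tests their difference directly. Scrambled libraries enter this comparison only through the filter, the scaling factors and the shared estimate of the spread. Here 17 of the 32 genes were higher with siRNA-2 (53.1%), 1 was lower and 14 were not called, at a median log2 fold change of 0.20. Of all genes tested, 16.2% were higher and 16% lower, 32.3% called in all, at a median of 0.00, and of expressed protein-coding genes 21% were higher and 25.9% lower, 46.9% in all. The libraries of the siRNAs did not overlap for 15 genes as higher and 2 as lower (all genes 16.1% and 15.8%, together 31.9%). GDF15 differed most, by 1.08 (adjusted p = 0.00283, SE 0.21), then FAS by 0.98 (adjusted p = 0.000584, SE 0.15), BBC3 by 0.85 (adjusted p = 0.000824, SE 0.15), CDKN1A by 0.64 (adjusted p = 0.00535, SE 0.14) and GADD45A by 0.60 (adjusted p = 4.49e-05, SE 0.08). FDXR differed by 0.57 (adjusted p = 0.00208, SE 0.11) and XPC by 0.53 (adjusted p = 5.79e-10, SE 0.04). All 4 repair genes, 4 of 5 cell cycle genes, 2 of 3 metabolic genes, 2 of 4 death receptors, 4 of 11 apoptosis and survival genes and none of the 4 feedback genes were higher with siRNA-2. Of the feedback genes, PPM1D reached an unadjusted p of 0.0346, and MDM2 passed by DESeq2 (adjusted p = 0.0485). The 1 gene lower with siRNA-2 was TNFRSF10B, by 0.21 (adjusted p = 0.000156, SE 0.04).

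**Figure D4:**
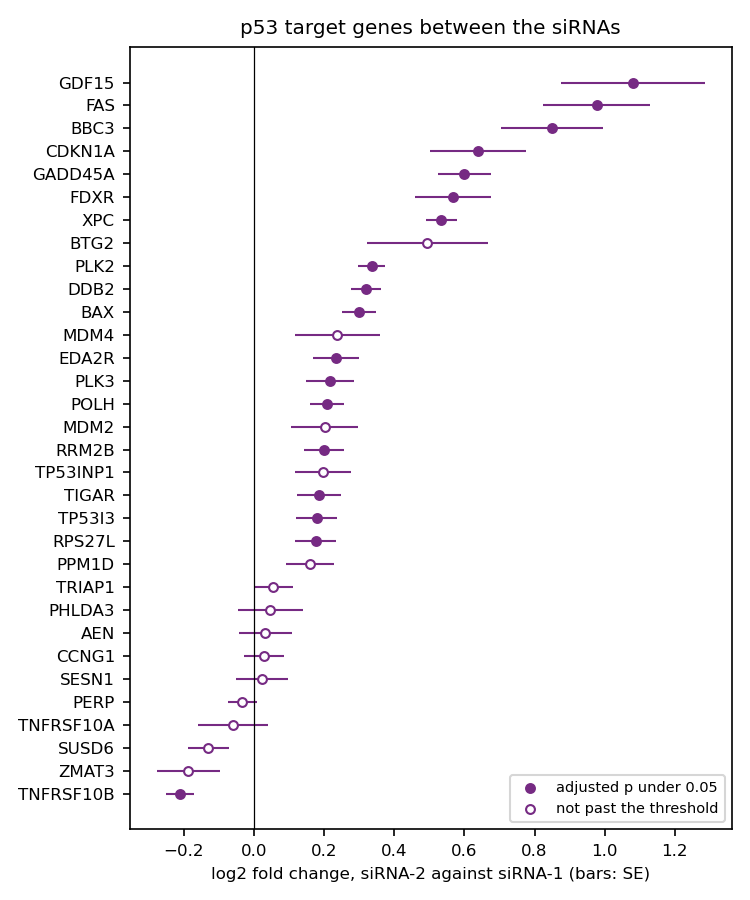
Log2 fold change of siRNA-2 against siRNA-1 (horizontal axis, bars are SE, 4 libraries against 4) for the 32 tested p53 target genes, sorted by size, filled where the adjusted p was under 0.05. Most points lie right of 0, led by GDF15 at 1.08 and FAS at 0.98, and TNFRSF10B at -0.21 is the only filled point on the left.

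So of the 6 genes called with siRNA-2 and not with siRNA-1, the difference itself passed for BBC3, CDKN1A, FAS, FDXR and RRM2B (0.20, adjusted p = 0.00979) and not for PPM1D (0.16, adjusted p = 0.0918, interval 0.01 to 0.30). Of the 5 called with siRNA-1 and not with siRNA-2, it passed for BAX (0.30, adjusted p = 2.55e-05), DDB2 (0.32, adjusted p = 1.75e-06), EDA2R (0.23, adjusted p = 0.00803) and TP53I3 (0.18, adjusted p = 0.0182). It did not pass for MDM2 (0.20, adjusted p = 0.147, interval -0.01 to 0.42). The intervals of CCNG1 (-0.09 to 0.15) and PERP (-0.12 to 0.05) between the siRNAs were narrow, so a difference between siRNAs as large as their fall against scrambled lies outside them. PLK2 (0.34), PLK3 (0.22), POLH (0.21), RPS27L (0.18) and TIGAR (0.18) were higher with siRNA-2 as well. The values of AEN (0.03), PHLDA3 (0.05), TRIAP1 (0.05), SESN1 (0.02), SUSD6 (-0.13), ZMAT3 (-0.19) and TNFRSF10A (-0.06) did not pass, nor did those of BTG2 (0.49), MDM4 (0.24) and TP53INP1 (0.20).

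Some calls between the siRNAs turned on 1 library. Without siRNA-2 replicate 1, 13 genes in place of 17 were higher, and the adjusted p was 0.0991 for PLK3, 0.126 for RPS27L, 0.116 for TIGAR and 0.118 for TP53I3. Without siRNA-1 replicate 1 it was 0.0649 for PLK3, 0.116 for TIGAR and 0.0732 for TP53I3. RPS27L also missed without siRNA-1 replicates 2 (0.0677) and 4 (0.0907) and siRNA-2 replicate 2 (0.0526), and TIGAR without siRNA-1 replicate 4 (0.0769). Calls were gained without siRNA-1 replicate 3 for BTG2 (0.0343), MDM2 (0.0401) and TP53INP1 (0.0291), and without siRNA-2 replicate 3 for BTG2 (0.0383) and TP53INP1 (0.0264). ZMAT3 passed, as lower, without scrambled replicate 1 (0.0108) or 4 (0.0236), which enter only through the filter, the scaling factors and the shared spread. SUSD6 passed, as lower too, without siRNA-1 replicate 1 (0.048). All values in brackets are adjusted p.

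The genes also varied together within groups. siRNA-2 replicate 1 was the highest of its 4 libraries for 26 of the 32 genes (81.2%), against 28.9% of all genes tested. Over the 32 its median log2 ratio to the other 3 replicates was 0.19. siRNA-1 replicate 3, the library richest in 45S reads, was the highest of its group for 16 of the 32 (50%), against 24.3% of all genes. Scrambled replicate 1 was the lowest of its group for 21 of the 32 (65.6%), against 32.6% of all genes. Among 11719 protein-coding genes at a mean log2 CPM of at least 2, these 3 shares were 30.2%, 23.5% and 43% in the same order, and among the 34 other p53 targets described below 58.8%, 38.2% and 41.2%. The part of 45S reads or of reads in otherwise empty intervals in these orders was not tested, and siRNA-2 replicate 1 was not among the libraries rich in 45S reads. Without it, 16 genes in place of 17 were higher with siRNA-2 against scrambled. The median coefficient of variation over the 32 genes was 6.29% in scrambled, 7.35% with siRNA-1 and 8.62% with siRNA-2.

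**Figure D5:**
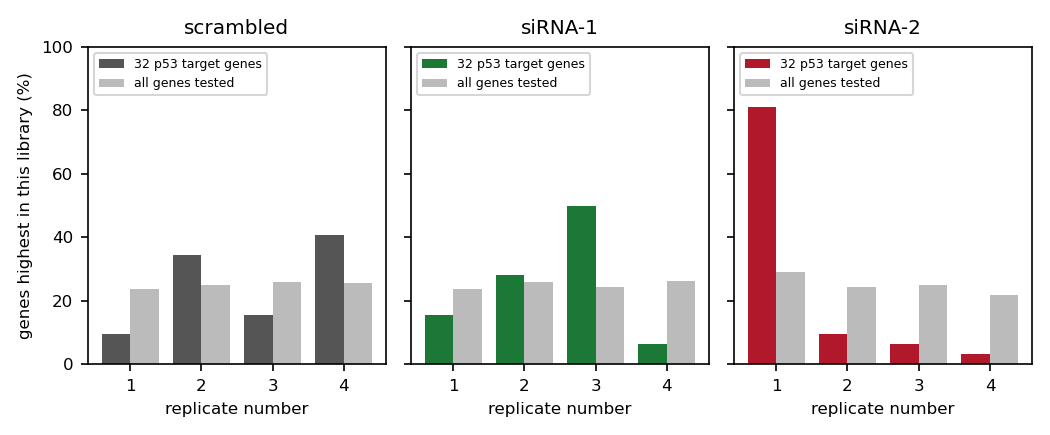
Share of genes (vertical axis, percent) for which each replicate (horizontal axis) was the highest of the 4 libraries of its group, for the 32 p53 target genes (coloured bars) and for all genes tested (grey bars). The bar of siRNA-2 replicate 1 reaches 81.2% and that of siRNA-1 replicate 3 reaches 50%, while the grey bars lie between 21.9% and 28.9%.

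The genes that act on p53 went both ways. Of 23 regulators tested (24 listed), 7 rose and 10 fell with siRNA-1 at a median of -0.16, and 9 rose and 11 fell with siRNA-2 at a median of -0.10. The shares called were 73.9% and 87.0%, against 53.5% and 56.1% of all genes and 70.1% and 72.9% of expressed protein-coding genes. PRKDC, the DNA-dependent protein kinase, fell by 0.86 (adjusted p = 3.98e-06, SE 0.08) and 1.11 (adjusted p = 3.39e-07, SE 0.08), and ATM, the kinase of the double-strand break signal, by 0.46 (adjusted p = 7.6e-06, SE 0.07) and 0.71 (adjusted p = 5.72e-09, SE 0.07). HIPK2, a kinase that phosphorylates p53 for apoptosis, fell by 0.98 (adjusted p = 1.63e-12, SE 0.06) with siRNA-1 and by 0.71 (adjusted p = 3.59e-10, SE 0.06) with siRNA-2. TP63, a p53 relative at a low level of 0.609 ± 0.134 CPM in scrambled (SD, n = 4), fell by 1.05 (adjusted p = 0.0048, SE 0.31) with siRNA-2. Higher were TP73, the other relative (0.39 (adjusted p = 9.03e-05, SE 0.08) and 0.86 (adjusted p = 2.12e-10, SE 0.07)), PML, of nuclear bodies (0.36 (adjusted p = 6.93e-06, SE 0.05) and 0.74 (adjusted p = 1.85e-10, SE 0.05)), and TP53BP1, a mediator of double-strand break repair (0.40 (adjusted p = 1.72e-10, SE 0.03) and 0.35 (adjusted p = 1.67e-09, SE 0.03)). KAT5, an acetyltransferase of p53, rose by 0.37 (adjusted p = 1.05e-07, SE 0.05) with siRNA-1. However, 7083 of the 7610 bases of its span overlap RNASEH2C on the other strand. RNASEH2C held a number of reads equal to 177% of those of KAT5, so the rise cannot be assigned to KAT5 alone. KAT5 stood at 30.5 ± 0.619 CPM in scrambled, 39.5 ± 1.91 with siRNA-1 and 39.1 ± 0.878 with siRNA-2 (SD, n = 4). CREBBP, a coactivator of p53, rose by 0.45 (adjusted p = 7.5e-06, SE 0.06) with siRNA-2. On the other strand, TP73 shares 4643 bases with TP73-AS1, ATM 62900 with C11orf65, TP53BP1 8713 with TUBGCP4 and CREBBP 8606 with CHESS1389. Reads there cannot be told apart.

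CDKN2A, which encodes the MDM2 inhibitor p14ARF and the CDK inhibitor p16, had very few reads and an uneven pattern. Counts of 31, 23, 18 and 26 reads were found in scrambled, 0 in each siRNA-1 library, and 23, 14, 41 and 45 reads with siRNA-2. The level with siRNA-1 was at least 32.4-fold lower than in scrambled and at least 37.9-fold lower than with siRNA-2, with a floor of 3 counts over the group. A172 is known to lack this locus, so what these reads are is unclear from the table. Its neighbour MTAP, named after its values were seen, was low too, with 57, 41, 35 and 26 reads in scrambled, 1, 30, 33 and 44 in the siRNA-1 group and 6, 5, 34 and 47 in the siRNA-2 group. The median of the regulators with siRNA-1 was -0.16 with CDKN2A set at its bound as well.

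A second list of 36 other known p53 targets, of which 34 were tested, was also split. With siRNA-1, 14 rose and 16 fell (median -0.05), and with siRNA-2, 16 rose and 10 fell (median 0.07). The shares called were 88.2% and 76.5%, beside the same 53.5% and 56.1% of all genes and 70.1% and 72.9% of expressed protein-coding ones. Between the siRNAs 20 were higher and 1 lower with siRNA-2 (median 0.17), against 16.2% and 16% of all genes. The lower one, named after its value was seen, was TSC2, an inhibitor of mTORC1 signalling (-0.10, adjusted p = 0.0441). In 9 of 21 alternatives no gene of this list was lower, among them those without siRNA-1 replicate 1 or 4 and without siRNA-2 replicate 1, 2 or 4. CASP1, the inflammatory caspase and also an interferon-responsive gene, stood at 5.59, 3.23, 4.89 and 4.51 CPM in scrambled, 10.9, 10.4, 10.8 and 9.81 CPM with siRNA-1 and 14.5, 13.9, 11.5 and 14.6 CPM with siRNA-2, and rose by 1.20 (adjusted p = 1.54e-07, SE 0.12) and 1.58 (adjusted p = 2.66e-09, SE 0.12). DRAM1, a lysosomal protein of autophagy, stood at 31.4, 30.8, 33.5 and 30.4 CPM, 56.6, 63.8, 65.3 and 59.9 CPM and 87.5, 83.4, 78.8 and 83.5 CPM, and rose by 0.96 (adjusted p = 9.38e-15, SE 0.05) and 1.40 (adjusted p = 6.99e-18, SE 0.05). The 3 groups did not overlap for either gene, and scrambled was the lowest.

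STEAP3, an endosomal ferrireductase, went from 62.9 ± 2.598 CPM (SD, n = 4) to 138 ± 8.27 and 153 ± 6.04 CPM, a rise of 1.13 (adjusted p = 6.96e-17, SE 0.04) and 1.28 (adjusted p = 6.99e-18, SE 0.04). STEAP3-AS1, inside its span on the other strand, held a number of reads equal to 32% of those of STEAP3. LOC105373581 shares 3913 bases on that strand too, and the counting does not separate these reads. ACER2, a ceramidase of the Golgi, went from 8.87 ± 0.405 to 3.93 ± 0.117 and 4.45 ± 0.868 CPM, a fall of 1.17 (adjusted p = 5.16e-10, SE 0.11) and 1.00 (adjusted p = 6.2e-09, SE 0.10). APAF1, the scaffold of the apoptosome, fell by 0.58 (adjusted p = 2.45e-09, SE 0.06) and 0.59 (adjusted p = 1.62e-09, SE 0.06), with part of its span shared with ANKS1B. KITLG, the ligand of the receptor KIT, fell by 0.64 (adjusted p = 1.56e-06, SE 0.09) with siRNA-1 and rose by 0.40 (adjusted p = 0.000297, SE 0.09) with siRNA-2, and TNFRSF10D, a decoy receptor for TRAIL, fell by 0.47 (adjusted p = 1.51e-05, SE 0.08) and 0.45 (adjusted p = 2.15e-05, SE 0.08).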

How the data were processed

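RNA sequencing of 12 A172 libraries gave raw counts of reads per interval, whole numbers with no normalization as deposited by the authors. Per the submitters' processing notes, Salmon and hg38 were used; the interval-counting tool is not given in the sources used. Intervals span whole genes, and nested pairs showed that reads are counted on both strands alike: in 2917 same-strand and 3716 opposite-strand pairs no outer interval held fewer reads than its inner one. Of 49731 intervals, 45340 were used, after leaving out regions, ribosomal RNA, copies, outdated or unmatched names and intervals that reach over 100 kb past their gene.

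Genes were tested with edgeR 4.0.16 in R 4.3.3 (TMM factors, filterByExpr with a minimum count of 10 and minimum total of 15, robust quasi-likelihood test on all 12 libraries, modelled by group alone), two-sided, with Benjamini-Hochberg adjustment over all 25147 genes tested and a threshold of 0.05. SE is the absolute log2 fold change over the square root of F, an interval is the unadjusted 95% t interval from it, and CPM uses TMM-scaled sizes. The script was tested on simulated data first.

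All 33 genes are named, and, from the lists of regulators and other targets, the 3 called genes of largest change in each direction per comparison with scrambled. DAXX, SESN2, PTPRC, AIF1 and MOG had no usable interval, and TP53AIP1 was not tested. One gene that the rule also names is not reported here. The members and lists were chosen with earlier results of these data known. Alternatives were DESeq2 1.42.0 and its size factors in edgeR, other filters, protein-coding genes only, only the groups compared, a replicate block and each library left out; 2 settings without doubtful libraries were added after seeing the data. Figures used Python 3.11.15 and matplotlib 3.10.9.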

Additional observations from a re-analysis of the deposited data

Results flagged for a closer look

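Within each group of 4 libraries, 7 of the 150 sets of values from 50 genes held 1 library that stood apart from the other 3 by Dixon's ratio, and chance flags about 1 in 20. For 3 genes it was siRNA-2 replicate 1 that stood high. PPM1D was at 66.71 CPM there and at 52.7 to 54.92 CPM in the others. DDB2 was at 83.55 CPM against 73.73 to 74.78, and FDXR at 53.92 CPM against 38.95 to 39.6. BBC3 stood high in siRNA-1 replicate 3, at 11.44 CPM against 8.7 to 9.048. PHLDA3 stood low in scrambled replicate 1, at 119.4 CPM against 130.6 to 132.7, and TP53I3 low in siRNA-1 replicate 1, at 26.89 CPM against 28.5 to 28.83. APAF1 was low in siRNA-2 replicate 4, at 24.98 CPM against 27.67 to 28.03.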

How the results depend on the processing

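No direction of a called value reversed under the 21 alternatives of each result. Those that leave out the 2 libraries rich in 45S reads, or these and scrambled replicate 1 (3 libraries), were chosen after seeing the data. The counts of the 33 genes kept within 1.5 times except here: higher with siRNA-1 was 6 in place of 11 without the 3 libraries (8 to 13 with each library left out in turn), and lower between the siRNAs was 2 in place of 1 with only the compared groups and without those 3 libraries (1 to 2 with each left out). Higher with siRNA-2 ranged from 16 to 18, and lower with siRNA-2 was 7 throughout. For regulators, lower between the siRNAs was 3 in place of 6 without the 2 libraries rich in 45S reads (3 to 6 with each left out, 3 without siRNA-1 replicate 2 or siRNA-2 replicate 2). For other targets, lower with siRNA-2 was 6 to 10 with each left out (6 without siRNA-2 replicate 3), and lower between the siRNAs was 0 in place of 1 with no filter, with the replicate block, and without the 2 or the 3 libraries (0 to 1 with each left out). The cause of these shifts was not tested.

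Of the values of single genes, 1928 stayed on their side of the threshold, 45 lost the call and 43 gained it. Errors did not follow the level alone. The SE of TNFRSF10A, a gene at a low count, was under those of CDKN1A and GDF15 in both comparisons with scrambled.

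Libraries of the same replicate number were no more alike than others. Deviations of same-numbered libraries correlated at -0.20 to 0.12 over 14709 genes, and those of other pairs at -0.24 to 0.18. These values cannot show whether same-numbered libraries were handled together. With the replicate block, 10 of the 32 tested genes were higher and 13 lower with siRNA-1, 18 and 7 with siRNA-2, and 18 and 1 between the siRNAs. Of all 25147 genes tested, that setting called 13321, 14061 and 8054 in either direction, in the same order.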
